A study of Mus musculus with 6 samples.

Results

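The unfolded protein response and the ATF4 stress response were followed through 37 transcripts, in cultures labelled as mouse prostate cancer cells with valproic acid (VPA) or as their controls. The 37 genes were a list drawn up from the known components of both pathways, and all 37 had a probe set annotated with exactly 1 gene symbol, among 19938 genes measured in that way. Where a gene had more than 1 such probe set, the one with the highest mean over the arrays was used. The groups were 3 arrays of cells treated with VPA, a branched short-chain fatty acid that inhibits class I histone deacetylases, and 3 arrays of control cells. These names come from the sample titles and the series design, and the samples were described as biological replicates. Other labels contradict them: their cell type, strain and source fields give undifferentiated embryonic stem cells of strain Stra8-EGFP/Rosa26 for the VPA arrays and differentiated embryonic stem cells of strain 129SV for the control arrays. No dose, length of treatment or cell line name was found in the labels used here, and every difference below rests on the titles.

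RNA was hybridised to Affymetrix mouse Gene 1.0 ST arrays, and the values are log2 intensities after RMA, the standard summary of these arrays. Array medians lay between 7.15 and 7.18, and with 3 arrays a group the standard error of a difference had a median of 0.101 over genes. The markers of prostate and other epithelium had low values. Group means of the 8 measured ones ran from 3.50 in VPA arrays and 3.55 in control arrays for Pbsn, a secreted prostate protein, to 7.44 and 7.75 for the keratin gene Krt8. Of 6 stromal markers, Vim, the mesenchymal filament protein, had the highest means, 13.42 in VPA arrays and 13.59 in control arrays. The means of the others, Acta2, Pdgfra, Pdgfrb, Col1a1 and Col1a2, ran from 8.03 (Col1a2, control arrays) to 13.36 (Acta2, control arrays). Of 7 pluripotency markers, Sox2 had a high value, at 11.26 and 11.58, and the means of the others, Pou5f1, Nanog, Zfp42, Esrrb, Tdgf1 and Dppa5a, lay from 4.22 to 6.51. None of these 15 markers, and none of 6 stromal markers, was called between the groups by the test described below. All 7 pluripotency markers had lower means in VPA arrays, with a median difference of -0.20, and 3 of them (Esrrb, Pou5f1 and Sox2) had an unadjusted p under 0.05. Over all 19938 genes, 11684 had lower means, the median difference was -0.035 and 8.3% were lower at that threshold. Epcam, an epithelial marker higher with VPA, and Pdgfrb, a stromal marker lower with VPA, also had an unadjusted p under 0.05. Of the 8 epithelial markers, 3 had higher and 5 had lower means with VPA, and of the 6 stromal markers 3 had higher and 3 had lower means. Of 6 immune markers, 5 had lower means with VPA and 1, Cd68, had a higher mean (8.45 in VPA arrays and 8.24 in control arrays). Only Cd53 was called, as lower with VPA (9.08 ± 0.38 in VPA arrays and 9.96 ± 0.18 in control arrays, SD, n = 3 each, limma adjusted p = 0.0373). The pan-leukocyte marker Ptprc averaged 5.51 in VPA arrays and 5.74 in control arrays. The part of these differences in the results was not tested. These values of different probe sets carry no detection call, so they do not settle which of the 2 sets of labels describes the cells.

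When unfolded proteins gather in the endoplasmic reticulum (ER), 3 membrane sensors respond. PERK, encoded by Eif2ak3, phosphorylates eIF2 alpha, which slows translation in general and favours translation of the transcription factor ATF4. IRE1, encoded by Ern1, splices the Xbp1 transcript, and ATF6 is cleaved to a transcription factor, and both raise chaperones and degradation factors of the ER. ATF4 is also reached by amino acid shortage and other stresses, and it drives genes of amino acid synthesis and uptake together with Ddit3, which encodes the death-promoting factor CHOP. Secretory epithelia such as the prostate rely on this system, and in rat brain valproate is known to raise the transcript of the chaperone Hspa5. The arrays measured transcript levels and not splicing of Xbp1, cleavage of ATF6 or translation of ATF4.

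None of the 37 transcripts passed the test between VPA and control cells. The test was limma's moderated test with Benjamini-Hochberg adjustment over all 19938 genes, and a gene was called at an adjusted p under 0.05, as 2.34% of all genes were (1.71% higher and 0.632% lower with VPA). At an unadjusted p under 0.05, 3 members were higher with VPA (Atf3, Asns and Eif2ak3) and 3 were lower (Vldlr, Atf5 and Mthfd2), which is 8.11% of the members in each direction. The same threshold took 18.1% of all genes, 9.82% as higher and 8.3% as lower, beside 16.2% of the members. The 3 VPA arrays lay wholly above the 3 control arrays for 7 members, or 18.9%, and wholly below for 3, or 8.11%, against 11.1% and 12% of all genes (23.1% in either direction). The median difference, VPA minus control, was 0.02 on the log2 scale over the members and -0.035 over all genes.

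**Figure D1:**
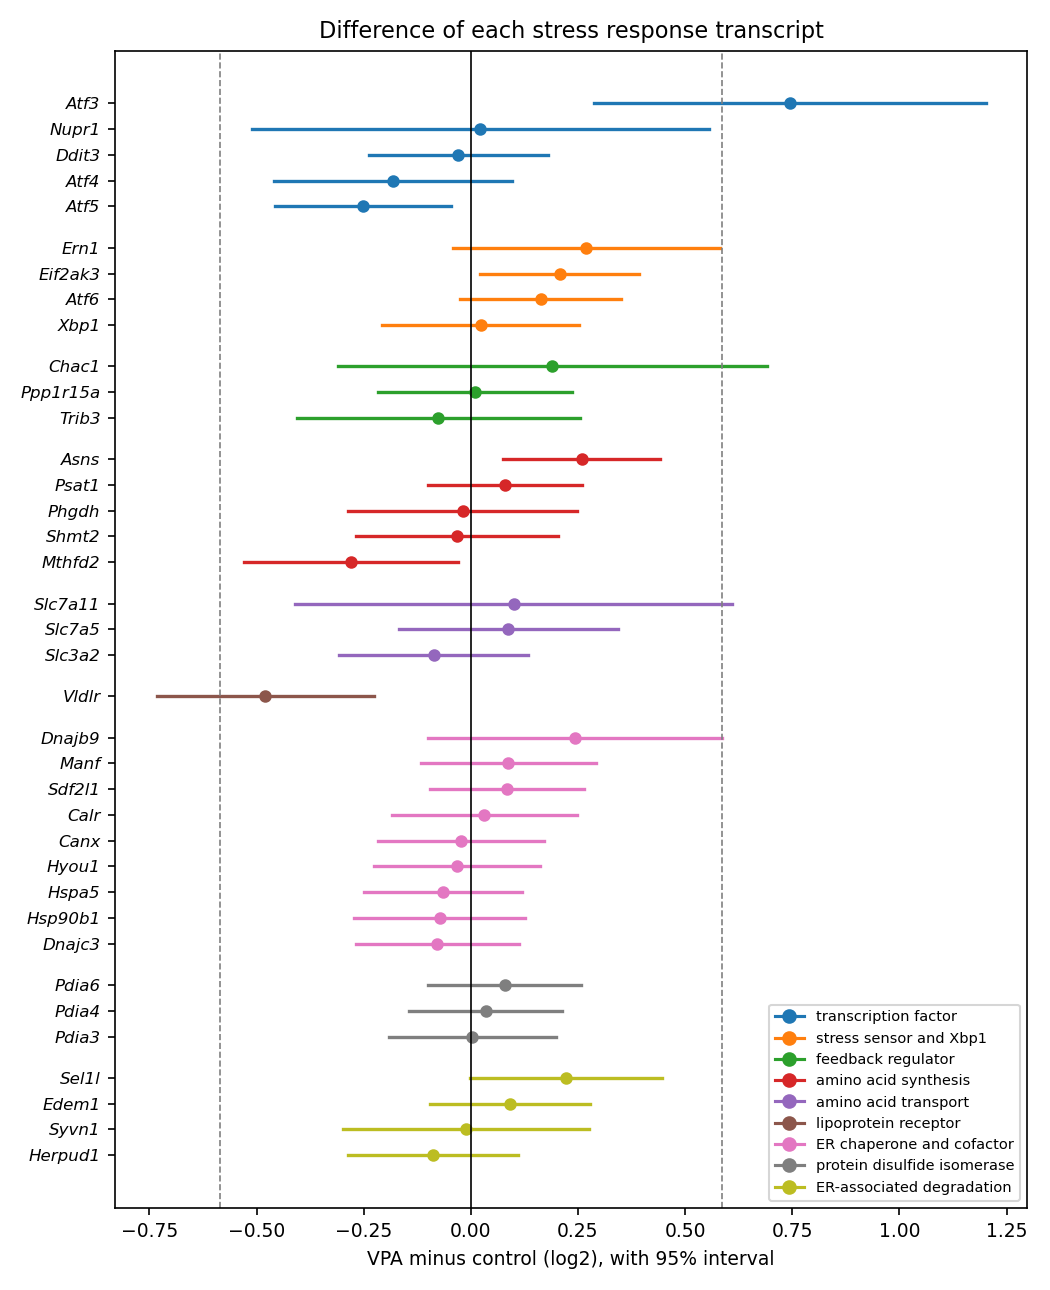
Difference between VPA and control arrays for each of the 37 transcripts (log2 scale), in blocks by role, with points for the estimate and lines for the 95% interval of limma's fit. Chac1 is drawn in the block of the feedback regulators. Dashed lines mark 1.5-fold in either direction, and the interval passes one of them for Atf3, Chac1, Slc7a11, Vldlr and Dnajb9.

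The intervals bound what these arrays leave possible. For 36 of the 37 transcripts the 95% interval excluded a 2-fold difference in either direction, and Atf3 was the exception, against 98.3% of all genes. For 32 it excluded a 1.5-fold difference, against 89.1% of all genes. Of the 16 members that fold or degrade proteins in the ER (chaperones, isomerases and degradation genes), 15 had such an interval. Of the 17 members of the ATF4 arm (transcription factors, feedback regulators, Chac1, amino acid genes and Vldlr), 13 did. In RNA from a whole culture, a lower level in each cell and fewer cells with the transcript cannot be told apart.

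Promoters of some members hold sequence elements through which both arms are known to act, and the matches are shown because the values of these members are set side by side below. Promoter sequences were taken from RefSeq (GRCm38.p6), from 250 bases before to 50 bases after the start of transcription, for 33 of the 37 genes (not used here were Atf6, Hyou1, Slc7a5 and Manf). They were searched on both strands for 4 motifs. The ER stress element I was CCAAT, 9 bases of any kind and CCACG, and the ER stress element II was ATTGG, 1 base of any kind and CCACG. The unfolded protein response element was TGACGTGG, and the ATF4 composite element was TGATGNAA. No hit in a member overlapped a hit of another motif. The ER stress element I was found in 7 of the 33 genes (21.2%), against 0.137% of 27025 genes in the table. The windows below read along the strand of the motif, which is in capitals with 10 bases on each side. Hsp90b1 has a copy on each strand.
Hspa5 (chr2:34772015-34772053, + strand): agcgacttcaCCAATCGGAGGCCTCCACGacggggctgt
Hsp90b1 (chr10:86705628-86705666, - strand): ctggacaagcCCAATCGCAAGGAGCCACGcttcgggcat
Hsp90b1 (chr10:86705523-86705561, + strand): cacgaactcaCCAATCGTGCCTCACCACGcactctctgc
Calr (chr8:84847065-84847103, + strand): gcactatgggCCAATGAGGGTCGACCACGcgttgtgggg
Canx (chr11:50325790-50325828, - strand): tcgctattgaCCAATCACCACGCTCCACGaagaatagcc
Dnajc3 (chr14:118937817-118937855, + strand): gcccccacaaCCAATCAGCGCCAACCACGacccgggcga
Pdia6 (chr12:17266481-17266519, + strand): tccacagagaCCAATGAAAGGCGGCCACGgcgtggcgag
Syvn1 (chr19:6046522-6046560, + strand): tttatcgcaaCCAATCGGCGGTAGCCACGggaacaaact

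The ATF4 composite element was found in 8 of the 33 genes (24.2%), against 4.51% of all genes in the table. A motif this short matches many promoters, and a match describes the letters and not binding. The windows are again printed along the strand of the motif, in capitals. Slc7a11 has a copy on each strand, Vldlr has it in 1 of its 2 listed promoters, and in Trib3 the element lies just after the start.
Atf3 (chr1:191183426-191183453, + strand): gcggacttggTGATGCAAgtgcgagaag
Nupr1 (chr7:126625563-126625590, + strand): aagccctgtcTGATGCAAtctggccctt
Trib3 (chr2:152344029-152344056, + strand): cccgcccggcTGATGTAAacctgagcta
Chac1 (chr2:119351039-119351066, - strand): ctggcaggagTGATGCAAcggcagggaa
Asns (chr6:7693215-7693242, - strand): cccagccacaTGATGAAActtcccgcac
Slc7a11 (chr3:50443662-50443689, - strand): ctcatgtggcTGATGCAAacctggagaa
Slc7a11 (chr3:50443643-50443670, + strand): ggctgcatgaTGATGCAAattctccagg
Vldlr (chr19:27216810-27216837, - strand): ctaggagcgcTGATGCAActattgctgc
Herpud1 (chr8:94386307-94386334, - strand): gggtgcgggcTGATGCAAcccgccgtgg

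Herpud1 was also the 1 member with the ER stress element II, which 0.0444% of genes hold.
Herpud1 (chr8:94386367-94386397, + strand): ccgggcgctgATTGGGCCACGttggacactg
The unfolded protein response element was in none of the 33 windows, against 0.714% of all genes. The 7 members with the ER stress element I differed between VPA and control arrays by -0.08 (Dnajc3) to 0.08 (Pdia6) on the log2 scale, with a median of -0.02. The 8 with the ATF4 composite element covered a wider range, from -0.48 (Vldlr) to 0.74 (Atf3), with a median of 0.06. Over all measured genes that hold the element, the median difference was -0.02 for the 21 genes with the ER stress element I and -0.04 for the 565 with the ATF4 composite element.

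Among the transcription factors, Atf3 had the highest difference of all members. ATF3 is a stress-induced factor of the ATF and CREB family that ATF4 is known to activate. Its values were 9.78, 9.37 and 8.94 in VPA replicates 1, 2 and 3, against 8.73, 8.82 and 8.30 in control replicates 1, 2 and 3. The groups did not overlap, and VPA replicate 3 was the VPA array nearest to the controls. Atf3 averaged 9.36 ± 0.42 in VPA arrays and 8.62 ± 0.28 in control arrays (SD, n = 3 each), a 1.68-fold difference with a 95% interval from 1.22 to 2.30. The adjusted p of limma was 0.0964. Without VPA replicate 3 the log2 difference was 0.96 and the adjusted p 0.0208, and without each other single array the adjusted p lay between 0.0888 and 0.259.

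Atf4 itself had overlapping groups, with 10.21, 10.33 and 9.92 in VPA arrays, against 10.37, 10.47 and 10.17 in control arrays. Its log2 difference was -0.18 (SE 0.124, limma adjusted p = 0.466), and the interval of the fold ran from 0.727 to 1.07. The related factor Atf5, which is likewise controlled at translation, had 9.58, 9.52 and 9.65 in VPA arrays, against 9.94, 9.71 and 9.85 in control arrays. Every VPA value of Atf5 lay below every control value, by a mean of 0.25 (unadjusted p = 0.0218, adjusted p = 0.188), and the call threshold was not reached. Ddit3 had 8.94, 9.04 and 8.81 in VPA arrays, against 8.88, 9.01 and 8.99 in control arrays. The groups of Ddit3 overlapped, and the interval of the fold ran from 0.848 to 1.13. Nupr1, a small chromatin protein induced by stress, differed by 0.02 with an interval from -0.51 to 0.55, a wide range on both sides of 0.

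**Figure D2:**
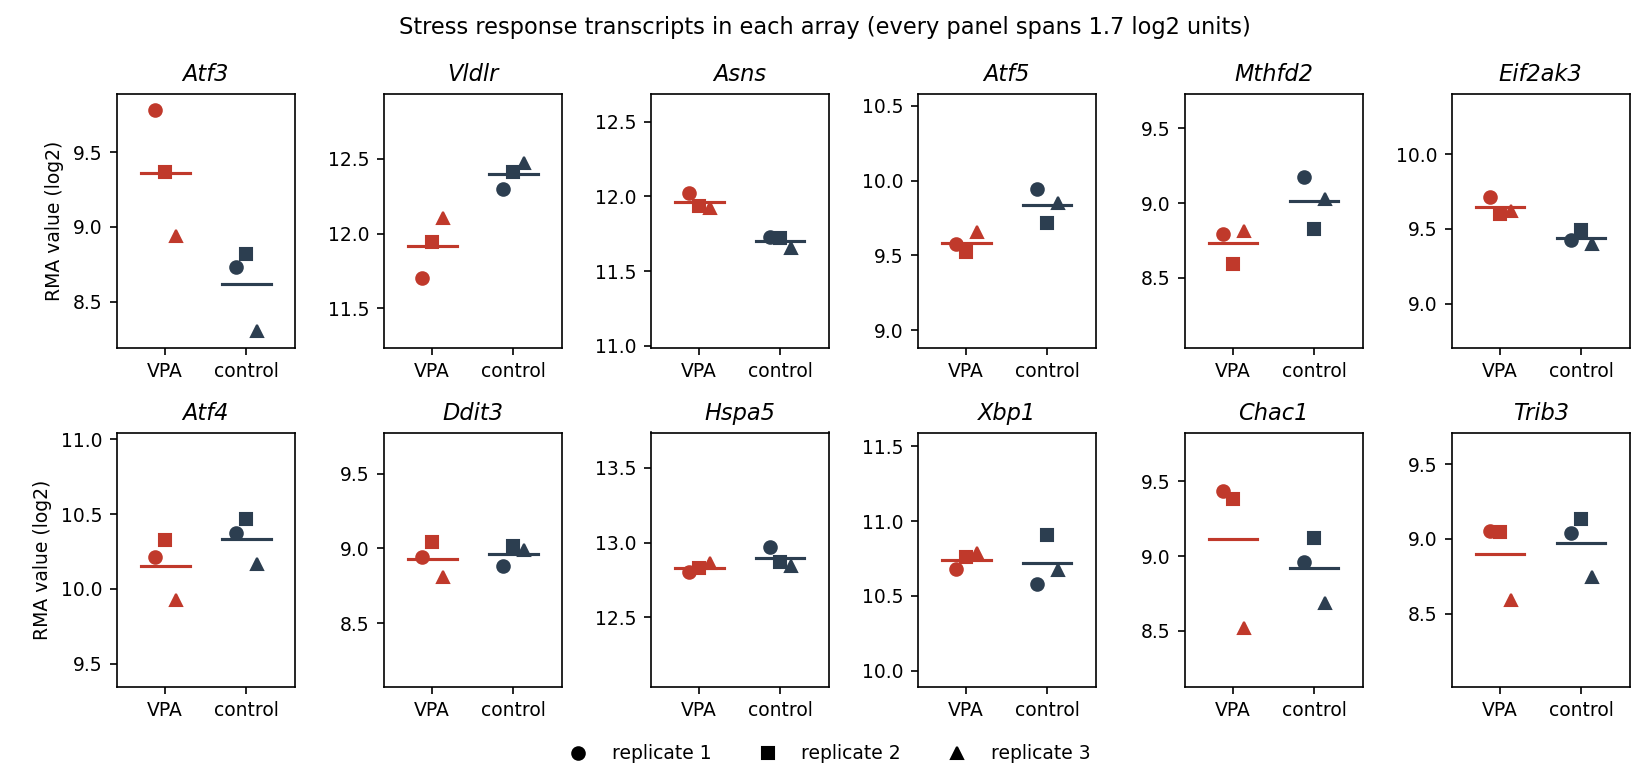
RMA values (log2) of 12 transcripts in each of the 3 VPA and 3 control arrays, with a marker for each replicate number and a line at the group mean, on axes of equal span. The top row holds the 6 members with an unadjusted p under 0.05, with Atf3 at 8.94 to 9.78 in VPA arrays and 8.30 to 8.82 in control arrays, and the bottom row shows overlapping groups.

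The 3 sensors all had positive differences, and none passed. Eif2ak3 had 9.72, 9.60 and 9.62 in VPA arrays, against 9.43, 9.49 and 9.40 in control arrays. The groups were separate and the replicates tight, and the difference was 0.21 (SE 0.0825, limma adjusted p = 0.225), or 1.15-fold. Atf6 was also separate, with 10.87, 10.84 and 10.77 in VPA arrays, against 10.60, 10.74 and 10.65 in control arrays, at a difference of 0.16 (adjusted p = 0.343). Ern1 differed by 0.27 (SE 0.139, adjusted p = 0.345), with a VPA array at 10.94 below the highest control at 11.02. Xbp1, the target of IRE1, had 10.68, 10.76 and 10.79 in VPA arrays, against 10.58, 10.91 and 10.68 in control arrays. The control values of Xbp1 enclosed those of VPA, and the difference was 0.02 with an interval of the fold from 0.867 to 1.19.

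Chac1 and the feedback regulators Trib3 and Ppp1r15a, all downstream of ATF4, showed no separation of the groups. Chac1, which degrades glutathione, had 9.43, 9.38 and 8.52 in VPA arrays, against 8.96, 9.12 and 8.69 in control arrays. VPA replicate 3 was the lowest of the 6 arrays and the other VPA arrays the highest, and the log2 difference was 0.19 (SE 0.223, limma adjusted p = 0.680). Trib3, a pseudokinase that restrains AKT and ATF4, had 9.05, 9.05 and 8.59 in VPA arrays, against 9.04, 9.13 and 8.75 in control arrays. Replicate 3 was the low array in both groups of Trib3, and the difference was -0.08 (adjusted p = 0.814). Ppp1r15a, the phosphatase subunit GADD34 that reverses phosphorylation of eIF2 alpha, differed by 0.01, with an interval of the fold from 0.861 to 1.18.

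The genes of amino acid and folate synthesis had differences of both signs, and none passed. Asns, asparagine synthetase, had 12.02, 11.93 and 11.92 in VPA arrays, against 11.73, 11.72 and 11.65 in control arrays. The gap between the groups was wider than the spread within either, at a log2 difference of 0.26 (SE 0.0815), or 1.20-fold with an interval from 1.05 to 1.36, but the limma adjusted p was 0.138. Mthfd2, a mitochondrial enzyme of folate metabolism, lay on the opposite side, with 8.79, 8.59 and 8.81 in VPA arrays, against 9.18, 8.83 and 9.03 in control arrays. The groups of Mthfd2 were separate by a narrow margin, and the difference of means was -0.28 (adjusted p = 0.223). Psat1, of serine synthesis, differed by 0.08, with groups that only just did not overlap (12.31 in the lowest VPA array and in the highest control array), and Phgdh, the first enzyme of that route, by -0.02. Shmt2, which passes carbon from serine to folate in mitochondria, differed by -0.03.

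Of the transporters, Slc7a5 and Slc3a2 encode the light and heavy chains of a carrier of large neutral amino acids. Slc3a2 had 12.71, 12.56 and 12.63 in VPA arrays, against 12.89, 12.63 and 12.64 in control arrays, a difference of -0.09 (limma adjusted p = 0.669). Slc7a5 had 12.79, 12.49 and 12.35 in VPA arrays, against 12.47, 12.41 and 12.48 in control arrays, a difference of 0.09 (adjusted p = 0.714). In both genes 1 array of replicate 1 stood above the others, the control array for Slc3a2 and the VPA array for Slc7a5. The cystine carrier Slc7a11 differed by 0.10, with an interval of the fold from 0.752 to 1.53.

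Vldlr, the very low density lipoprotein receptor, which is known as a target of PERK and ATF4, had the lowest difference and the smallest p of all 37. Its values were 11.70, 11.95 and 12.10 in VPA arrays, against 12.30, 12.41 and 12.47 in control arrays. All 3 VPA arrays lay below the controls, by 0.48 on the log2 scale (SE 0.113), which is 0.717 of the control level with an interval from 0.602 to 0.855. The adjusted p of limma was 0.0627, and the gene ranked 619 of all genes by p. It was under the threshold without VPA replicate 3 (0.0286), with low genes filtered out (0.0467), with a trended and robust prior (0.0323) and with array weights (0.0492). Without each other single array it lay between 0.0985 and 0.193.

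None of the 9 ER chaperones and cochaperones passed, and their differences ran from -0.08 to 0.24, the highest being that of Dnajb9. Hspa5, the chaperone BiP that holds the 3 sensors inactive, had 12.80, 12.83 and 12.86 in VPA arrays, against 12.97, 12.87 and 12.85 in control arrays. Its difference was -0.07 (SE 0.0819, limma adjusted p = 0.704), and the interval of the fold ran from 0.841 to 1.09. Dnajb9, a cochaperone of BiP and a target of XBP1, had 11.14, 11.18 and 10.82 in VPA arrays, against 10.47, 11.03 and 10.90 in control arrays. Control replicate 1 was the low array, and the difference of 0.24 had an adjusted p of 0.433 and a 95% interval from -0.10 to 0.59 on the log2 scale. Sdf2l1, which works with the cochaperones of BiP, had 10.18, 10.07 and 10.11 in VPA arrays, against 10.06, 10.04 and 10.01 in control arrays. The groups of Sdf2l1 were separate by a small margin, at 0.08 (adjusted p = 0.608). The other 6, Hsp90b1, Calr, Canx, Hyou1, Dnajc3 and Manf, differed by -0.08 to 0.09, and none had separate groups. Dnajc3 had 2 probe sets, with equal differences.

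Protein disulfide isomerases form and correct disulfide bonds of secreted proteins, and the 3 measured ones differed by at most 0.08. Pdia3 had the smallest difference, at 0.0036. Pdia6 had 12.09, 12.12 and 12.12 in VPA arrays, against 11.98, 12.08 and 12.03 in control arrays, with separate groups and a limma adjusted p of 0.629. Pdia4 had 11.59, 11.61 and 11.68 in VPA arrays, against 11.59, 11.59 and 11.60 in control arrays, and its second, dimmer probe set gave a difference of 0.25, against 0.03. Among the genes of ER-associated degradation, which returns misfolded proteins to the cytosol for the proteasome, Sel1l came nearest to the threshold. Sel1l, the adaptor of the ligase HRD1, had 11.97, 11.93 and 11.77 in VPA arrays, against 11.53, 11.79 and 11.69 in control arrays. VPA replicate 3 lay just below control replicate 2, and the difference was 0.22 (SE 0.1, unadjusted p = 0.0518, adjusted p = 0.281). Edem1, which marks glycoproteins for degradation, had 11.22, 11.19 and 11.12 in VPA arrays, against 11.03, 11.16 and 11.07 in control arrays, at 0.09 (adjusted p = 0.595). Syvn1, which encodes HRD1, differed by -0.01 and Herpud1 by -0.09.

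**Figure D3:**
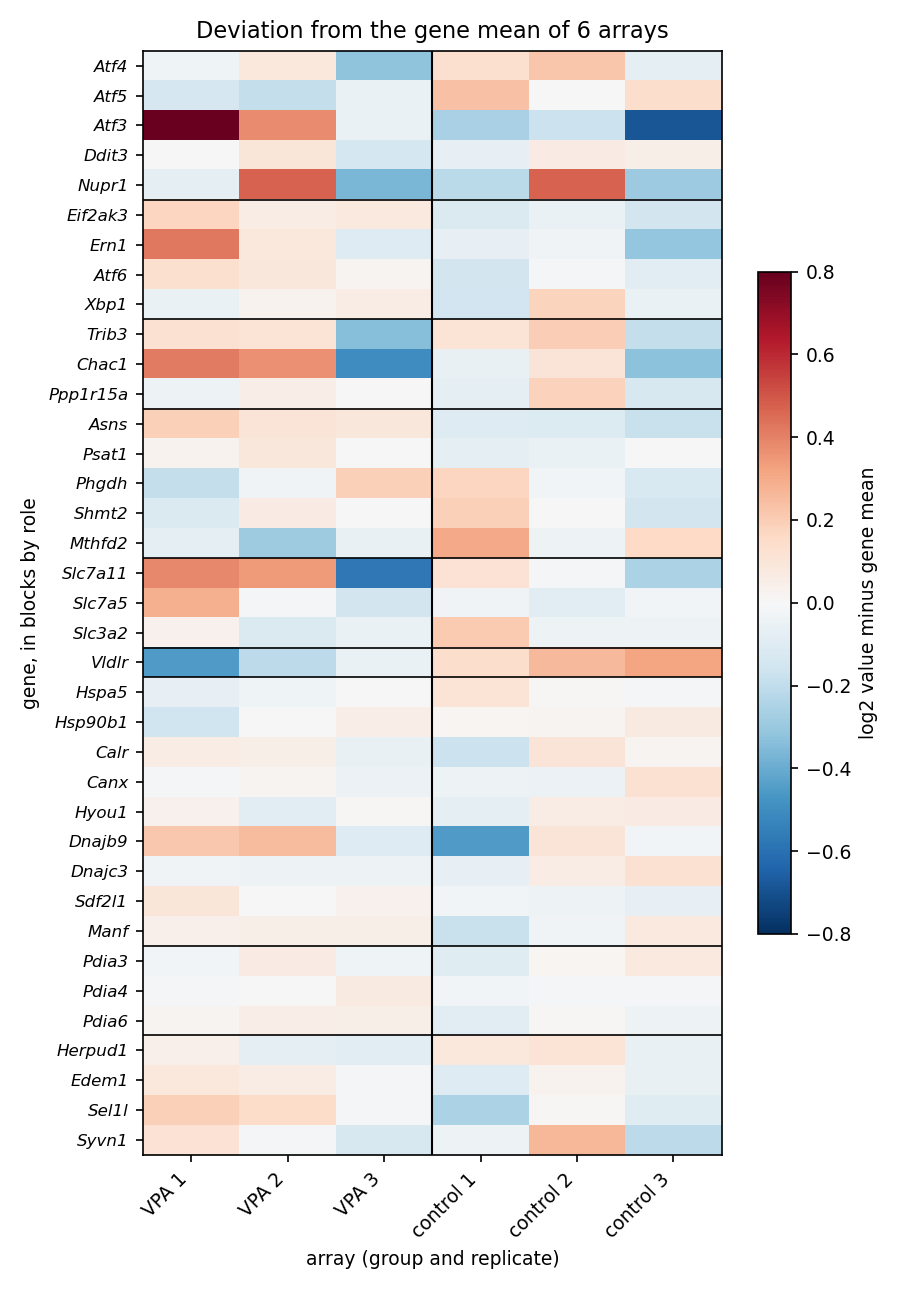
Deviation of each transcript from its own mean over the 6 arrays (log2 scale, colour), with VPA arrays on the left, control arrays on the right and blocks by role. Atf3 and Vldlr run in opposite directions between the groups, Trib3, Chac1, Slc7a11 and Nupr1 are low in replicate 3 of both groups, and the chaperone and isomerase rows are pale except that of Dnajb9, which is low in control replicate 1.

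The spread between replicates differed widely among the members. The within-group SD, pooled over both groups, was 0.423 for Nupr1, 0.404 for Slc7a11, 0.394 for Chac1 and 0.355 for Atf3, and 98.4% to 99.2% of all genes had a spread no larger than these. At the other end were Pdia4 (0.0341), Pdia6 (0.0364), Sdf2l1 (0.0404) and Psat1 (0.0424), where at most 3.02% of genes had as small a spread. The median was 0.0741 over the 16 members of ER folding and degradation and 0.156 over the 17 members of the ATF4 arm, beside 0.122 over all genes. Hspa5 stood at 0.0521 and Asns at 0.0496, so the tight members include a target of ATF4.

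In 10 of the 37 members, or 27%, replicate 3 was the lowest array in both the VPA and the control group, against 12.1% of all genes. These were Atf4, Atf3, Nupr1, Ern1, Trib3, Chac1, Asns, Slc7a11, Herpud1 and Syvn1, and the count was chosen after the values were seen. They include 7 of the 8 members with the ATF4 composite element in the promoter, and Vldlr is the other. Among all 565 measured genes with that element the share was 13.3%. Of the 7 members with the ER stress element I, 1 was among the 10, while the share was 28.6% of all 21 measured genes with that element. Replicate 2 was the lowest array of both groups in 3 members, against 22.5% of all genes, and replicate 1 in 6 members, against 8.26%. The part that the arrays as a whole play in this was not tested.

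**Figure D4:**
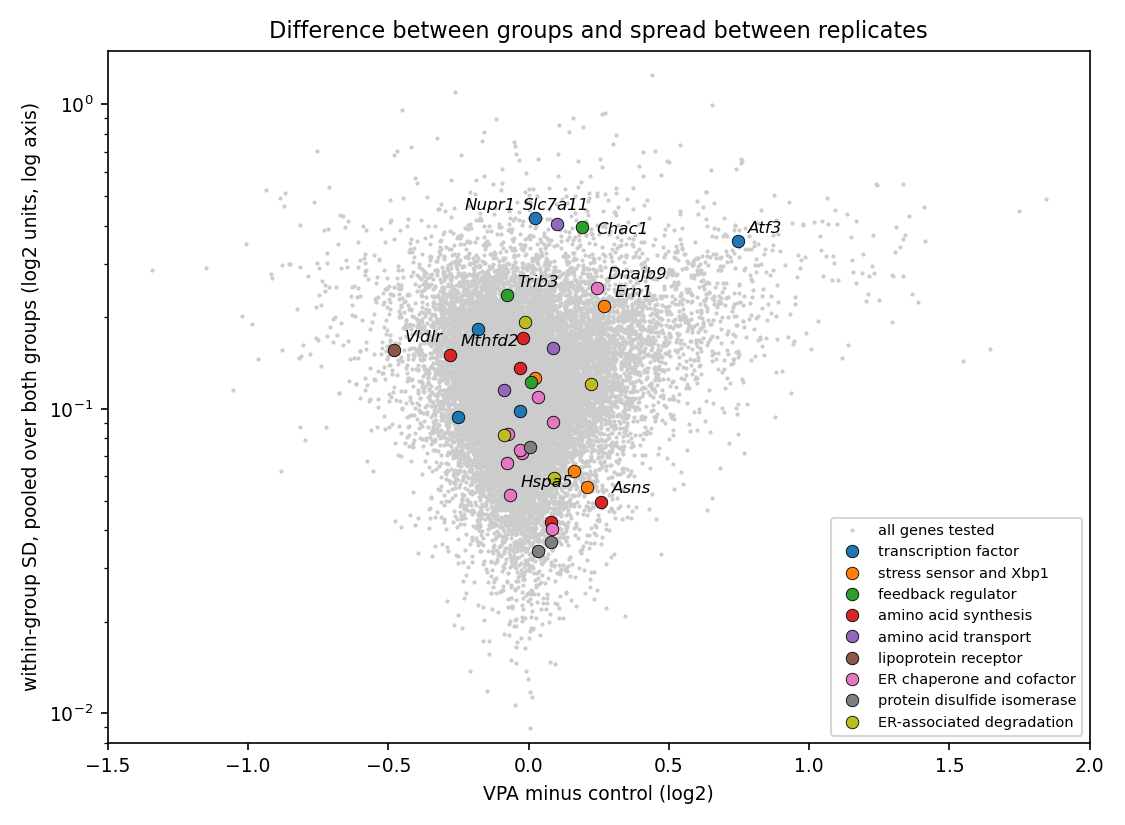
Difference between VPA and control (log2, horizontal) and within-group SD pooled over both groups (log2 units, log axis) for all 19938 genes in grey and the 37 members in colour by role. Nupr1, Slc7a11, Chac1 and Atf3 lie at 0.355 or above on the vertical axis, and on the horizontal one they lie at 0.02, 0.10, 0.19 and 0.74.

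Also measured were 31 other target genes of ATF4. They included aminoacyl-tRNA synthetases, transporters, genes of proline, serine and transsulfuration metabolism, and genes outside these classes, such as Gpt2 and Stc2. Of the 31, 1 rose with VPA, 1 fell and 29 did not pass, and their median difference was -0.05. Over all genes, 1.71% were called higher and 0.632% lower. Gpt2, the mitochondrial alanine transaminase, rose 1.32-fold, with 9.65, 9.68 and 9.53 in VPA arrays, against 9.18, 9.28 and 9.18 in control arrays (log2 0.40, SE 0.0848, limma adjusted p = 0.044). Stc2, which encodes the secreted glycoprotein stanniocalcin 2, fell by 0.48 on the log2 scale, with 8.59, 8.71 and 8.50 in VPA arrays, against 9.08, 9.21 and 8.95 in control arrays (SE 0.0992, adjusted p = 0.042). In both genes the groups were well apart, yet Stc2 lost its call whichever single array was left out (adjusted p 0.0685 to 0.148), and Gpt2 kept it without VPA replicate 3 (0.0382) but lost it without each of the other 5 arrays (0.0533 to 0.168). With every probe set of the arrays tested, the adjusted p was 0.177 for Gpt2 and 0.183 for Stc2.

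Of 36 other measured genes of ER folding and degradation, 1 rose, none fell and 35 did not pass. Of all genes, 1.71% were called higher and 0.632% lower. The median difference of the 36 was 0.01. Leaving out control replicate 2 gave 3 called genes, and leaving out VPA replicate 3 gave 2. The 1 was Ero1b, an oxidase that returns protein disulfide isomerases to their active form. It had 8.21, 8.14 and 7.88 in VPA arrays, against 6.95, 7.07 and 6.86 in control arrays, a 2.17-fold rise with an interval from 1.83 to 2.57 (log2 1.12, SE 0.109, adjusted p = 0.00702). Every VPA array of Ero1b lay far above every control array. The call held with any single array left out (adjusted p 0.00283 to 0.041) and ended when every probe set was tested (0.112). Its promoter also holds an ER stress element I.
Ero1b (chr13:12565672-12565710, - strand): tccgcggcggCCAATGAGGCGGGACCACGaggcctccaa
The paralogue Ero1a, whose product has the same activity, differed by 0.14 (adjusted p = 0.814). Of the 21 measured genes whose promoter holds this element, Ero1b and the zinc finger gene Zfp57 were called, both higher, and 19 were not. That is 9.52%, against 2.34% of all genes, and it rests on 2 genes. The share was 1.42% of the 565 genes with the ATF4 composite element. It was 0.699% of the 143 with the unfolded protein response element. Whether the element plays a part was not tested. Zfp57 is named because it was called, after its values were seen.

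**Figure D5:**
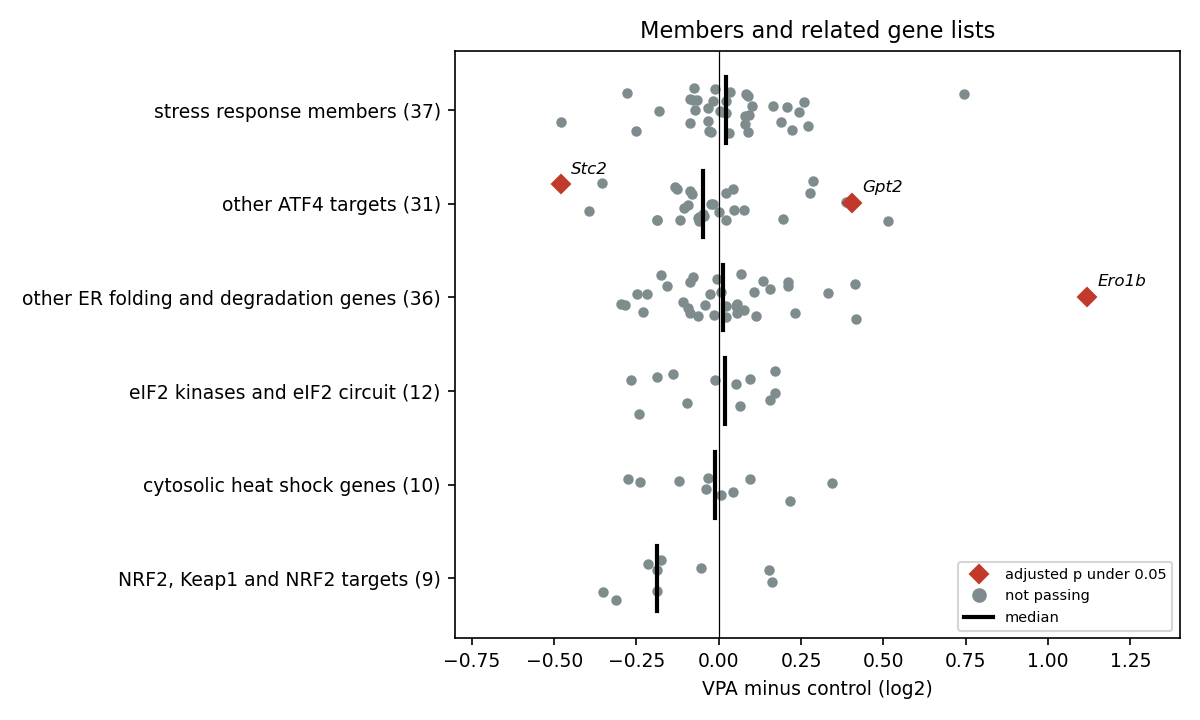
Difference between VPA and control (log2) for the 37 members and 5 related gene lists, with a point for each gene, a bar at the median and the number of measured genes in brackets. Red diamonds mark genes with an adjusted p under 0.05, which are Stc2 at -0.48, Gpt2 at 0.40 and Ero1b at 1.12.

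The last list held the eIF2 kinases other than PERK, their regulators, a phosphatase subunit, the subunits of eIF2B and Traf2, an adaptor of IRE1. Of 12 measured, none passed, where 2.34% of all genes did, and the median difference was 0.02. Impact, an inhibitor of the kinase GCN2, had the smallest p, with a difference of -0.24 (limma adjusted p = 0.152), and Eif2b1 followed with -0.27 (adjusted p = 0.270).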

How the data were processed

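Total RNA was isolated with Trizol and labelled with biotin, per the labels' protocols. The values are log2 intensities that the authors deposited, and the submitters' processing notes name RMA and Affymetrix Expression Console. RMA gives all arrays one distribution, so a change shared by most genes would not show. The software versions and the build were not found in the labels used here.

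Of 35556 probe sets, 21789 had exactly 1 symbol, and 21698 of these matched a RefSeq gene (GRCm38.p6) by Entrez identifier. The one with the highest mean was kept for each of 19938 genes. VPA was compared with control by limma 3.58.1 (R 4.3.3), using lmFit and eBayes on the 2 groups with no other term, two-sided, with Benjamini-Hochberg adjustment over all genes. The script was tested on simulated data. Alternatives were a filter on low values (log2 6 in 3 arrays), a second quantile normalization, centring, a replicate block, a trended robust prior, other rules for probe sets, array weights and leaving out each array.

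The members and related lists were chosen with earlier results of these data known, and unmatched list genes were left out. Values of every array are given for Atf4, Ddit3, Hspa5, Xbp1, members with an unadjusted p under 0.05 and the 2 with the smallest p in each role. From a related list, up to 3 called genes in each direction are named, or the 2 with the smallest p.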

Additional observations from a re-analysis of the deposited data

How the results depend on the processing

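No member was called, and that held with a second quantile normalization, with arrays centred on their medians, with the mean of probe sets and when all probe sets were tested. With genes of low value filtered out, a trended and robust prior or array weights, 1 member, Vldlr, was called lower. Leaving out single arrays gave 0 to 1 member called higher and 0 to 1 called lower, and the median member difference then ranged from -0.0085 to 0.0741, the highest without control replicate 2. Of 644 differences of single genes recomputed, 29 changed sign, all of them in genes not called. Over all genes, 341 were called higher and 126 lower, and these counts were 15 to 595 and 5 to 220 with single arrays left out, 2 and 0 with every probe set tested, and 534 higher with array weights. The other ATF4 targets called, 2 in number, became 0 with every probe set tested and 0 to 3 without single arrays. The other ER folding and degradation genes called, 1 in number, became 3 with the filter, the medians, the trended prior or array weights, 2 with the second normalization, 0 with every probe set and 1 to 3 without single arrays. The cause was not tested. The adjusted p of Ero1b was 0.112 with every probe set tested, that of Gpt2 0.177 and that of Stc2 0.183.

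The replicate numbers are shared by both groups, but the deviations of same-numbered arrays from their group means correlated at 0.0841, 0.451 and 0.284 over genes, and the numbers were not taken to pair the arrays because the first value is under 0.1. Each VPA array correlated best with the control of its own number, as did control replicates 2 and 3, while control replicate 1 correlated best with VPA replicate 3 (0.2). With the replicate number as a block, 827 genes were called higher and 372 lower, 1 member higher (Atf3, adjusted p = 0.00742) and 1 lower (Vldlr, 0.0162), with 3 of the other ER folding and degradation genes, 3 of the other ATF4 targets and 1 gene of the NRF2 list, Keap1 (0.0409).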

Other observations

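Further stress programmes, which share some triggers with the unfolded protein response, were measured beside it. Of 10 measured heat shock genes of the cytosol and mitochondria, none passed limma's test, where 2.34% of all genes did. Their median difference was -0.01. Hspb1, a small heat shock protein, came nearest, with 8.18, 8.42 and 8.28 in VPA arrays, against 7.96, 8.02 and 7.87 in control arrays (log2 difference 0.34, adjusted p = 0.0949), and its second probe set gave 0.37. Hspa4l followed (adjusted p = 0.288).

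Of 9 measured genes of the oxidative stress factor NRF2, its inhibitor KEAP1 and its targets, none passed, 7 had negative differences and the median was -0.19. Over all 19938 genes, 2.34% passed, 11684 differences were negative and the median was -0.035. Keap1 had 8.74, 8.71 and 8.90 in VPA arrays, against 9.09, 9.13 and 9.19 in control arrays (log2 difference -0.35, adjusted p = 0.0739). Gsr, glutathione reductase, had 9.59, 9.59 and 9.67 in VPA arrays, against 9.93, 9.79 and 10.06 in control arrays (log2 difference -0.31, adjusted p = 0.123).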
